A study of Mus musculus with 2 samples.

Results

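The midline guidance genes Slit1, Slit2, Slit3, Robo1, Robo2, Robo3, Ntn1, Dcc, Unc5c and Neo1 were followed in the mouse hindbrain at embryonic day 11.5. They were chosen by name, as 4 secreted ligands and 6 receptors of the Slit, Robo, netrin and Dcc systems. All 10 were found among the 43346 Ensembl genes of the tables, and all 10 had a mean TPM of 1 or more. TPM is a length-adjusted share of the RNA in a library, so it can be compared between genes. The 59 transcripts of these genes in the transcript tables were described by isoform percent, the share of a gene's TPM given to each transcript.

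The tissue was whole hindbrain of healthy embryos of strain B6NCrl, for which the labels name no treatment and no altered allele, in 1 group of 2 biological replicates. Pool 1 combined the hindbrains of 109 embryos and pool 2 those of 88, male and female mixed. Each library held RNA longer than 200 nt, made from 10 ng with ERCC spike-ins, which are synthetic RNAs added in known amounts. Values are given for pool 1 and then pool 2, or as mean ± SD over the pools (n = 2). Each pool is 1 library, so no difference between them could be checked against replicates and no p-value is given. In whole tissue, fewer cells of a type and less RNA per cell cannot be told apart.

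Commissural axons of the hindbrain and spinal cord grow towards the floor plate at the ventral midline, cross it once and do not cross back. Netrin-1, encoded by Ntn1, attracts them through Dcc, while netrin receptors of the Unc5 family mediate repulsion. Slit proteins, secreted at the midline, repel axons through Robo1 and Robo2, and in mouse Robo3 is needed for axons to reach and cross the midline.

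The libraries held 45340440 and 41261544 expected counts. The 10 genes together took 43088 and 41747 of them, which was 0.103% and 0.113% of the counts on Ensembl genes. Spike-ins took 16.2% and 22.2% of TPM, and the median gene, over those averaging 1 TPM or more, stood 0.11 higher in pool 1 on the log2(TPM + 1) scale. Pool ratios below are relative to that median gene. Of 6 hindbrain markers 5 reached a TPM of 1 in both, led by Hoxa2 (49.31 and 48.14 TPM) and Hoxb2 (48.89 and 46.38 TPM), whereas the 4 forebrain markers summed to 0.630 and 0.370 TPM. Other cells were present too: 3 mesenchyme collagen genes summed to 449.7 and 412 TPM, and 3 endothelial genes to 49.4 and 42.3 TPM.

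Robo3 was the most abundant of the 10 genes, at 91.27 and 83.74 TPM, and Ntn1 the least, at 5.72 and 7.95 TPM. By mean TPM the order was Robo3, Dcc, Slit2, Robo1, Robo2, Neo1, Slit3, Slit1, Unc5c and Ntn1. The ranges of neighbours overlapped between Dcc and Slit2, between Robo2 and Neo1, between Neo1 and Slit3, and between Slit1 and Unc5c, so those places are not separated by these libraries. The other neighbours did not overlap, although Slit2 in its lower pool (36.29 TPM) was close to Robo1 in its higher pool (34.88 TPM). Over protein-coding transcripts, an alternative chosen after seeing the data, 2 of these places were reversed in both pools. Slit2 (18.6 and 19.0 TPM) was then below Robo1 (34.9 and 29.5 TPM), and Slit3 (6.80 and 8.91 TPM) below Slit1 (10.0 and 14.9 TPM). The Slit2 share of the 10 genes' TPM was 8.66% on that scale, against 13.7% over all transcripts, and the Slit3 share 3.63%, against 7.07%. Among genes averaging 1 TPM or more, Robo3 lay at percentile 88.7, Dcc at 77.8 and Ntn1 at 33.8.

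**Figure D1:**
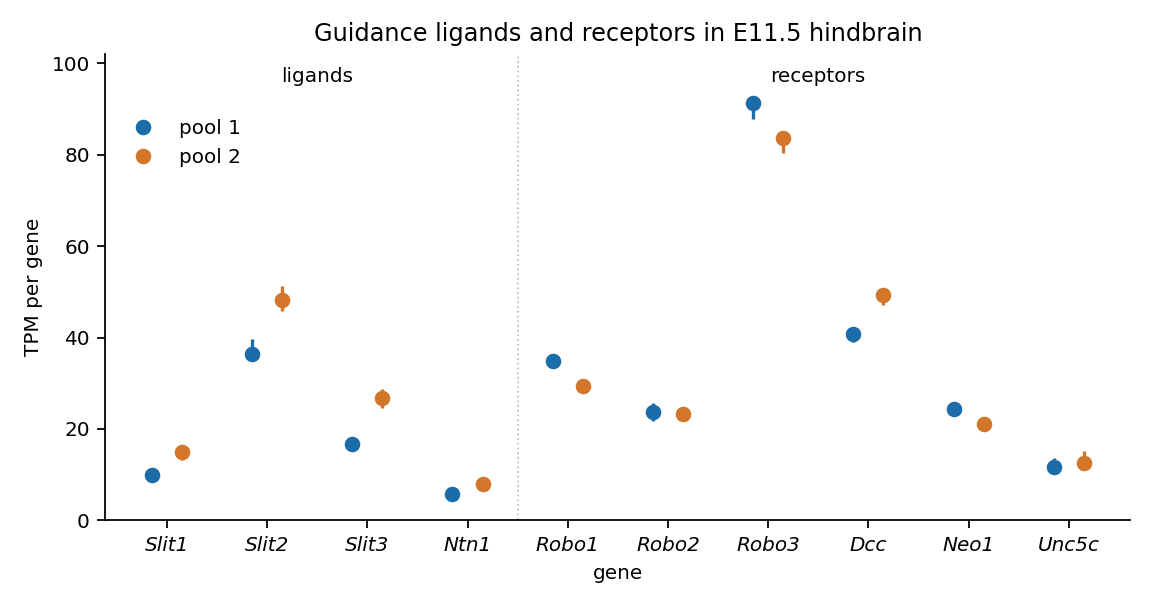
TPM of the 10 midline guidance genes, with pool 1 left of pool 2 for each gene and bars showing the interval around TPM that the authors deposited, of a level not stated. Robo3 (91.27 and 83.74 TPM) stands above Dcc (40.80 and 49.27 TPM) in both pools, and Ntn1 (5.72 and 7.95 TPM) is lowest.

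Summed over each family, Robo3 included, receptor transcripts outnumbered ligand transcripts in both pools. The 3 Robo genes summed to 150.0 and 136 TPM, and the 3 Slit genes to 63.1 and 89.9 TPM, a ratio of Robo to Slit of 2.38 and 1.52 (1.95 ± 0.608). The netrin receptors Dcc, Neo1 and Unc5c summed to 76.8 and 82.9 TPM, which was 13.4 and 10.4 times the level of Ntn1. Ntn1 was thus low in both pools against its receptors. The Slits were lower than the 3 Robos together, by a margin that differed between the pools. Robo3 alone made up 60.9% and 61.4% of the Robo sum. Without it, Robo1 (34.88 and 29.47 TPM) and Robo2 (23.81 and 23.23 TPM) together stood below the Slit sum in both pools. Over protein-coding transcripts they stood above the Slit sum in pool 1 (35.4 TPM) and slightly below it in pool 2 (42.9 TPM).

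Slit2, a repellent made by the floor plate and by motor neurons, was the leading Slit at 36.29 and 48.11 TPM (42.2 ± 8.36; 4740 and 5354 reads). The gene lies on chromosome 5, 47983138 to 48307733, plus strand (GRCm38). It made up 57.5% and 53.5% of Slit TPM. Its leading transcript was the protein-coding Slit2-202, with 42.77% and 33.15% of the gene's TPM. The next, Slit2-207, of the retained-intron class, had 28.06% and 35.10%, and its annotated exons run into intron 6 of Slit2-202. Slit2-209, also of the retained-intron class, had 8.86% and 15.28%. Slit2-207 was therefore below Slit2-202 in pool 1 and above it in pool 2.

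Slit2 transcripts are known to differ by short coding exons, and the sequences of exons that set annotated forms apart are given below. Slit2-202 holds exon 16, of 24 nt (chr5:48220967-48220990), which the annotated Slit2-216 lacks. No read was assigned to Slit2-216 in either pool. Slit2-217, with 8.34% and 6.41% of the gene's TPM, holds a 27 nt exon, its exon 31 (chr5:48263641-48263667), which Slit2-202 lacks. Both exons have a length divisible by the codon length. The deposited lengths of Slit2-202, Slit2-207, Slit2-209, Slit2-216, Slit2-217, Robo2-201, Robo2-203, Robo2-205, Robo3-202, Dcc-202 and Unc5c-202 differ from those of the annotation used here. The forms counted may therefore not match these in every part. The sequences are of GENCODE vM21 transcripts, on the plus strand of GRCm38, with the exon in capitals and 24 bases of the neighbouring exons on each side.
Slit2 exon 16: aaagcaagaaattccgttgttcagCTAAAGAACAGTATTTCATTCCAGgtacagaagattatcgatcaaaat
Slit2-217 exon 31: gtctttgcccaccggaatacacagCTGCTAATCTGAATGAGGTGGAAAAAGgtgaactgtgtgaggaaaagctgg

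Slit3, the Slit also known outside the nervous system in diaphragm and heart, was at 16.76 and 26.83 TPM (21.8 ± 7.12; 1296 and 1751 reads). Slit3 occupies chromosome 11, 35121224 to 35708507, plus strand. Its level was divided between a full-length coding transcript and a short one. Slit3-201, the protein-coding transcript of 5228 nt and 1523 residues, had 6.80 and 8.91 TPM. Slit3-202, a processed transcript of 1218 nt, had 7.36 and 12.92 TPM, which is a larger share of TPM than Slit3-201 in both pools. By reads the order was the opposite, with 79.2% and 73.8% of Slit3 reads on Slit3-201 and 18.7% and 23.3% on Slit3-202, since TPM divides by length. Slit3-204, a processed transcript of 459 nt, had 14.80% and 18.64% of TPM.

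Slit1, a Slit largely restricted to the nervous system, was the lowest Slit over all transcripts, at 10.01 and 14.95 TPM (12.5 ± 3.49; 1292 and 1668 reads). The gene is on chromosome 19, 41600257 to 41743665, minus strand. All of its reads were on transcripts annotated as protein-coding. Slit1-201 had 41.81% and 40.00%, Slit1-203 37.51% and 29.13%, and Slit1-205 20.68% and 30.87%. Slit1-205 is an incomplete fragment of 1220 nt that held 68.2 and 146 reads. Over protein-coding transcripts alone Slit2 was 1.85 and 1.27 times as abundant as Slit1, against 3.63 and 3.22 times over all transcripts. On that scale Slit3 and not Slit1 was the lowest Slit, with 19.2% and 20.8% of Slit TPM, against 28.3% and 34.9% for Slit1.

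The hairpins of miR-218, a microRNA known in vertebrates to lie within Slit genes and to act on Robo transcripts, were located in both hosts. Mir218-1 lies in intron 16 of Slit2-202 and Mir218-2 in intron 14 of Slit3-201. Both genes were listed with 0 reads in both pools. Each hairpin is 110 nt long and the libraries held RNA longer than 200 nt, so these tables do not bear on the level of miR-218. The mature sequences from RefSeq (GRCm38), with the seed (bases 2 to 8) in capitals, show that both hairpins give the same 5p arm and that their 3p arms have different seeds.
mmu-miR-218-5p: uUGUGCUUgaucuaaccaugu
mmu-miR-218-1-3p: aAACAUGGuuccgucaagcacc
mmu-miR-218-2-3p: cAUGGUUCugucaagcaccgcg

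Ntn1 was at 5.72 and 7.95 TPM (6.83 ± 1.58; 699 and 919 reads), lower than every receptor of the set in both pools. Ntn1 occupies chromosome 11, 68209364 to 68400823, minus strand. Ntn1-201, the full-length transcript of 604 residues, held 93.7% and 92.1% of its reads but 69.02% and 66.78% of its TPM. The rest of the TPM was nearly all on Ntn1-203, an incomplete coding fragment of 944 nt with 44.0 and 61.5 reads.

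Robo3 lies on chromosome 9, 37415669 to 37433246, minus strand, and is the shortest of the 10 genes at 17.6 kb. Its mean level was 87.5 ± 5.32 TPM, from 10553 and 9001 reads, and it made up 60.9% and 61.4% of Robo TPM. The Robo3 level was 2.62 and 2.84 times that of Robo1 and 3.83 and 3.60 times that of Robo2. The protein-coding Robo3-202, of 28 exons and 1402 residues, had 61.00% and 54.53% of the gene's TPM. Over protein-coding transcripts alone, Robo3 was 1.60 and 1.55 times Robo1, and still the highest of the 10 genes (55.7 and 45.7 TPM).

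Much of the remaining Robo3 TPM was on transcripts that keep introns. In mouse, retention of an intron near the 3′ end of Robo3 is known to change the receptor's C terminus, and the resulting form is found on axons that have crossed the midline. Robo3-206, a retained-intron transcript that spans introns 14, 20 and 21, had 22.32% and 23.14%. Robo3-203, which spans introns 25 and 26, had 14.08% and 18.28% of the gene's TPM (12.86 and 15.31 TPM, from 804 and 920 reads). Robo3-205, annotated as a target of nonsense-mediated decay, keeps intron 26 within a reading frame of 1345 residues, and had 2.43% and 3.52%. Robo3-203 and Robo3-205 thus had the larger share in pool 2, as did Robo3-206.

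Intron 26 is 405 nt long (chr9:37416921-37417325, minus strand). In Robo3-205 the frame runs 128 bases into it and ends at a taa stop codon. The intron-bearing sequence is shown from 24 bases of exon 26 to that stop codon, with intron bases in capitals, and the spliced junction of Robo3-202 with exon 27 in capitals. Both come from GENCODE vM21 transcripts and are written on the gene's strand. They share the exon 26 bases and differ from the next base on, which is where a read across this site is told apart.
Robo3 intron 26 kept: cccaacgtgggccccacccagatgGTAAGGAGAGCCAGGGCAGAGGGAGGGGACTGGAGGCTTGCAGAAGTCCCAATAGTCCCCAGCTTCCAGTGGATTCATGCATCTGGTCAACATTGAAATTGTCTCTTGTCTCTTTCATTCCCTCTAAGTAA
Robo3 intron 26 spliced out: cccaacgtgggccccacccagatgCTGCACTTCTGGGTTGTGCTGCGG

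Robo1, a Slit receptor, was at 34.88 and 29.47 TPM (32.2 ± 3.83; 7656 and 6216 reads). It lies on chromosome 16, 72308306 to 73046095, plus strand, and the tables list 1 transcript for it, so its isoforms could not be compared. Robo2, another Slit receptor on chromosome 16 (73891839 to 74411825, minus strand), had nearly equal levels in the pools, at 23.81 and 23.23 TPM (23.5 ± 0.410; 3079 and 3108 reads). That equal total was made of different transcripts. The retained-intron transcript Robo2-209, which starts near the 5′ end and runs into the 306 kb intron 2 of Robo2-203, had 7.05 and 10.72 TPM, or 29.60% and 46.14% of the gene. The coding Robo2-202 had 23.17% and 18.12%, and Robo2-203, of 1508 residues, had 17.94% and 15.89%. Summed over protein-coding transcripts, Robo2 was 16.5 and 11.7 TPM, higher in pool 1. Most of that difference lay on incomplete fragments with few reads. Robo2-204 had 2.89 and 0.61 TPM (37.1 and 7.52 reads) and Robo2-205 2.35 and 1.13 TPM (29.0 and 13.4 reads). Robo2-201 was higher in pool 2 (1.46 and 2.06 TPM). It was counted at a length of 4764 nt, whereas the annotation used here has it as an incomplete form of 886 nt.

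Unc5c, a netrin receptor of the repulsive class, was at 11.60 and 12.59 TPM (12.1 ± 0.700; 2524 and 2596 reads). The gene is on chromosome 3, 141465216 to 141834924, plus strand. The coding Unc5c-202 had 70.76% and 70.12% of its TPM, the steadiest leading share among the 8 genes with more than 1 transcript. Unc5c-201 had 15.46% and 11.35% and differs by 1 coding exon, its exon 8, of 57 nt (chr3:141786857-141786913). That exon is printed in capitals from the GENCODE vM21 transcript, with 24 bases of its neighbours on each side, because it is what sets apart the 2 main coding forms of the receptor.
Unc5c-201 exon 8: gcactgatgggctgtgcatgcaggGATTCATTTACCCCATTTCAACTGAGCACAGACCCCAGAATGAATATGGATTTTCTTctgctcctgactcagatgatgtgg

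Neo1 encodes neogenin, a relative of Dcc that binds netrin and the repulsive guidance molecules. It was at 24.44 and 20.99 TPM (22.7 ± 2.44; 5239 and 4323 reads), with 1 transcript in the tables. Its position is chromosome 9, 58874687 to 59036441, minus strand. Relative to the median gene, Robo1 (0.13) and Neo1 (0.10) had the highest log2 ratios of pool 1 to pool 2 among the members. Both lay within the central 95% of genes with 500 to 11000 reads (-0.50 to 0.38). Over protein-coding transcripts Robo2 (0.32) and Robo3 (0.14) were higher than both. The deposited intervals, on TPM without centring, did not overlap between the pools for either gene (23.3 to 24.6 against 20.0 to 21.2 TPM for Neo1). The same held for Robo3, whose centred ratio was 0.01. These intervals cover the estimate within a library and not the spread between pools.

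Dcc, the attractive netrin receptor, was the second most abundant of the 10 genes, at 40.80 and 49.27 TPM (45.0 ± 5.99; 6010 and 6811 reads). It lies on chromosome 18, 71253634 to 72351069, minus strand, and spans 1097 kb. It made up 53.1% and 59.5% of the TPM of the 3 netrin receptors and was 1.67 and 2.35 times Neo1. Dcc-202, which encodes 1447 residues, had 34.07 and 33.36 TPM, nearly equal in the pools. Dcc-201 lacks 60 coding bases of exon 17 of Dcc-202 and encodes 1427 residues, and had 4.64 and 10.45 TPM. The higher Dcc level of pool 2 thus lay on Dcc-201 and on Dcc-203, a retained-intron transcript with 2.10 and 5.46 TPM that runs into intron 2.

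**Figure D2:**
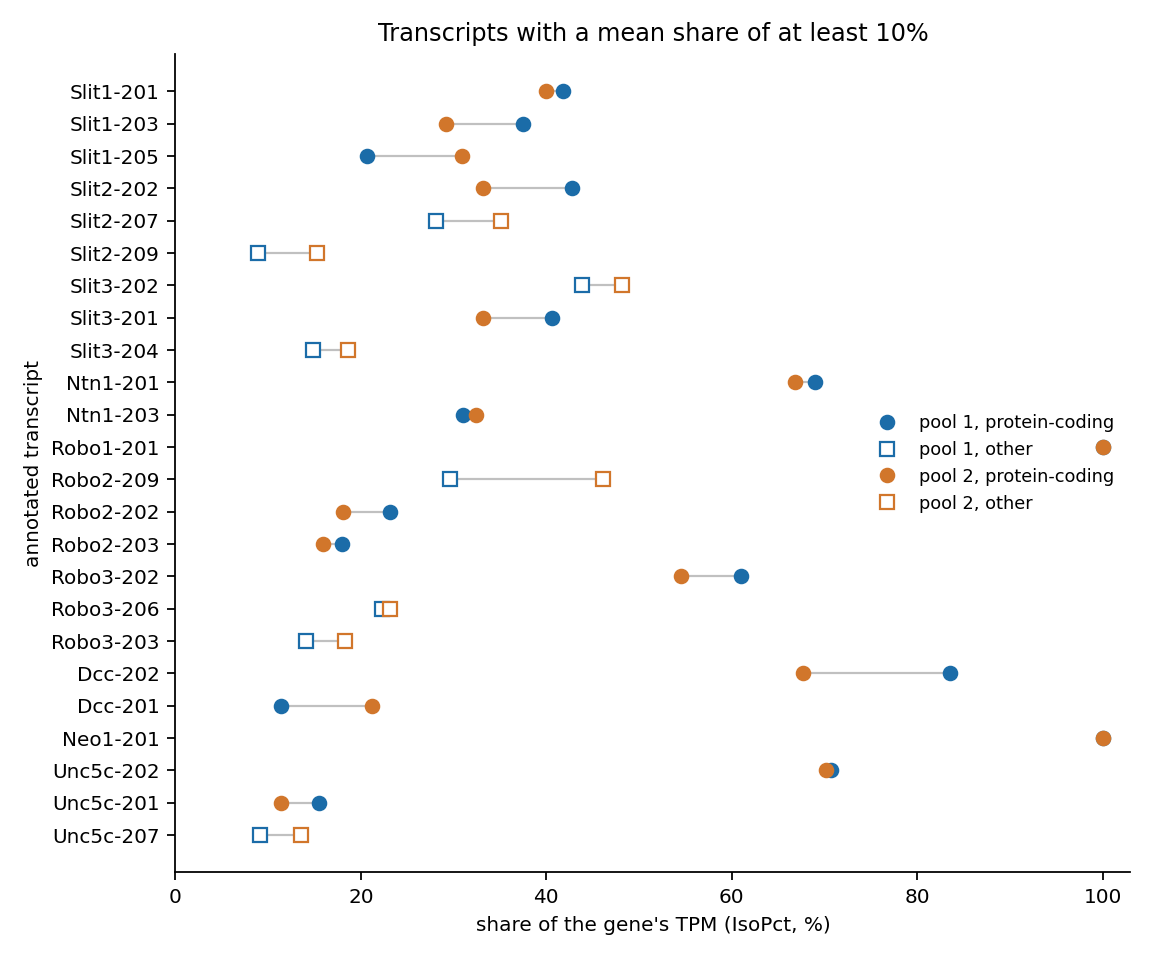
Isoform percent of the 24 transcripts with a mean of at least 10%, by gene, in pool 1 and pool 2, with protein-coding and other transcripts marked apart. The 8 other transcripts all have the larger share in pool 2, for example Robo2-209 at 29.60% and 46.14%, a count not made for other genes. Robo1 and Neo1 have 1 transcript each, so their points coincide.

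Of the 24 transcripts with a mean isoform percent of at least 10, 16 are annotated as protein-coding and 8 as another class (retained intron or processed transcript). All 8 of the other class had the larger share in pool 2. Of the 16 coding ones 11 had the larger share in pool 1, 3 in pool 2 and 2 were equal, the 2 being the single transcripts of Robo1 and Neo1. Those 3 were Dcc-201 and the incomplete fragments Slit1-205 and Ntn1-203. Shares within a gene trade off against each other and some genes give several transcripts, so these are not separate observations. Transcripts of other genes were not counted in this way.

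For 6 genes, Slit2, Slit3, Robo2, Robo3, Dcc and Unc5c, reads fell on both classes. The share of TPM on transcripts of the other class was 48.9% and 60.4% for Slit2, 59.4% and 66.8% for Slit3, and 30.8% and 49.6% for Robo2. It was 39.0% and 45.5% for Robo3, 5.15% and 11.1% for Dcc, and 13.2% and 18.6% for Unc5c. The share was higher in pool 2 in 6 of 6 genes. The same held for 68.6% of the 5720 protein-coding genes with both classes and at least 500 expected counts. Their median difference was -1.30 percentage points (pool 1 minus pool 2), with the central 95% between -17.4 and 9.37 points. The direction in these 6 genes was therefore that of most genes in these libraries.

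By reads the shares were smaller but in the same order between pools. In Robo2, 27.6% (Wilson 95% interval 26.1 to 29.2) and 41.1% (39.4 to 42.9) of reads were on the other class. In Dcc, they were 3.86% (3.40 to 4.38) and 8.52% (7.88 to 9.20). The intervals of the pools did not overlap for Slit2, Slit3, Robo2, Robo3, Dcc or Unc5c. They cover counting error only, and not the division of shared reads between overlapping transcripts, which is the authors' estimate. Such intervals were not computed for other genes, so their lack of overlap does not single out these genes.

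**Figure D3:**
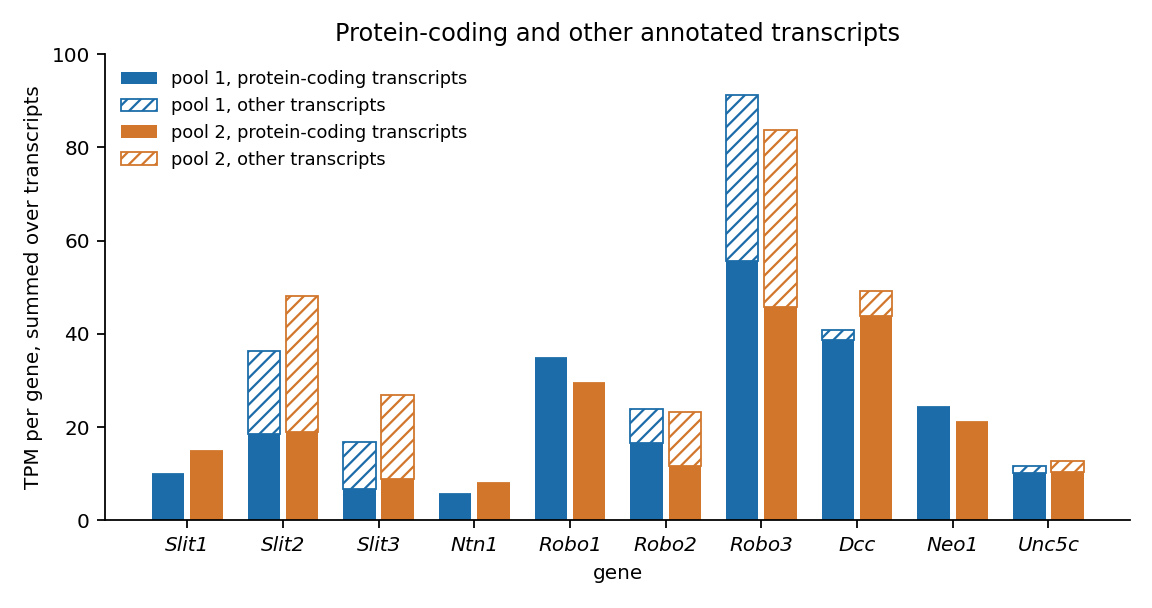
TPM of each gene divided into protein-coding transcripts (plain) and other transcripts (hatched), with pool 1 left of pool 2. For Slit2 the coding part is nearly equal (18.6 and 19.0 TPM) and the other part is 17.7 and 29.1 TPM.

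The split changed how the pools compare for Slit2. Its coding part was 18.6 and 19.0 TPM, whereas its other part was 17.7 and 29.1 TPM, so most of the gene's excess in pool 2 lay outside coding transcripts. For Slit3 both parts were higher in pool 2, at 6.80 and 8.91 TPM for the coding part and 9.96 and 17.9 TPM for the other. Summed over coding transcripts, the Robo to Slit ratio was 3.03 and 2.02, against 2.38 and 1.52 over all transcripts.

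By TPM, the 4 ligands differed more between the pools than the 6 receptors. On TMM-scaled counts Slit2 (-0.36) did not stand apart from Dcc (-0.37), nor did it over protein-coding transcripts (-0.18 against -0.32). Relative to the median gene, the log2 ratio of TPM + 1 (pool 1 over pool 2) was -0.76 for Slit3, -0.64 for Slit1, -0.52 for Ntn1 and -0.51 for Slit2. Among receptors it was -0.37 for Dcc, -0.22 for Unc5c, -0.07 for Robo2, 0.01 for Robo3, 0.10 for Neo1 and 0.13 for Robo1. The deposited intervals, on TPM without centring, did not overlap between the pools for the 4 ligands, nor for 4 of the 6 receptors (Dcc, Robo1, Robo3 and Neo1). How often they fail to overlap over all genes was not counted, so this does not set these genes apart. By the centred ratios, all 4 ligands and 3 of 6 receptors were higher in pool 2 than the median gene. Of these, Robo2 changed sign without centring (0.03) and over protein-coding transcripts (0.32), the latter with its incomplete fragments counted. The median of the 10 was -0.30. For scale, genes with 500 to 11000 reads had their central 95% of ratios between -0.50 and 0.38.

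Of the 10 genes 2, Slit1 and Slit3, were over 1.5-fold apart, against 5.98% of the 14942 genes averaging 1 TPM or more. Both were higher in pool 2, the direction of 4.35% of those genes, or of 2.41% of the 13128 genes with at least 100 expected counts. A large part of the Slit1 excess lay on the incomplete fragment Slit1-205, at 2.07 and 4.62 TPM from 68.2 and 146 reads. Slit1-201 (4.18 and 5.98 TPM) and Slit1-203 (3.75 and 4.35 TPM) were also higher in pool 2. The Slit1 call thus rests in part on few reads. With TMM-scaled expected counts, a scaling that does not use transcript length, 1 of the 10 was past that fold (Slit3, -0.62), against 9.31% of genes. With a single library per pool these counts describe the libraries. The 4 ligands kept their direction under every scaling, filter and pseudocount tried, and Slit2 was then between -0.18, over coding transcripts only, and -0.52, with a pseudocount of 0.1. This was not particular to the ligands. Dcc (-0.27 to -0.39) and Unc5c (-0.11 to -0.23) also stayed higher in pool 2, and Robo1, Robo3 and Neo1 stayed higher in pool 1. Only Robo2 changed sign. All settings use the same 2 libraries.

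**Figure D4:**
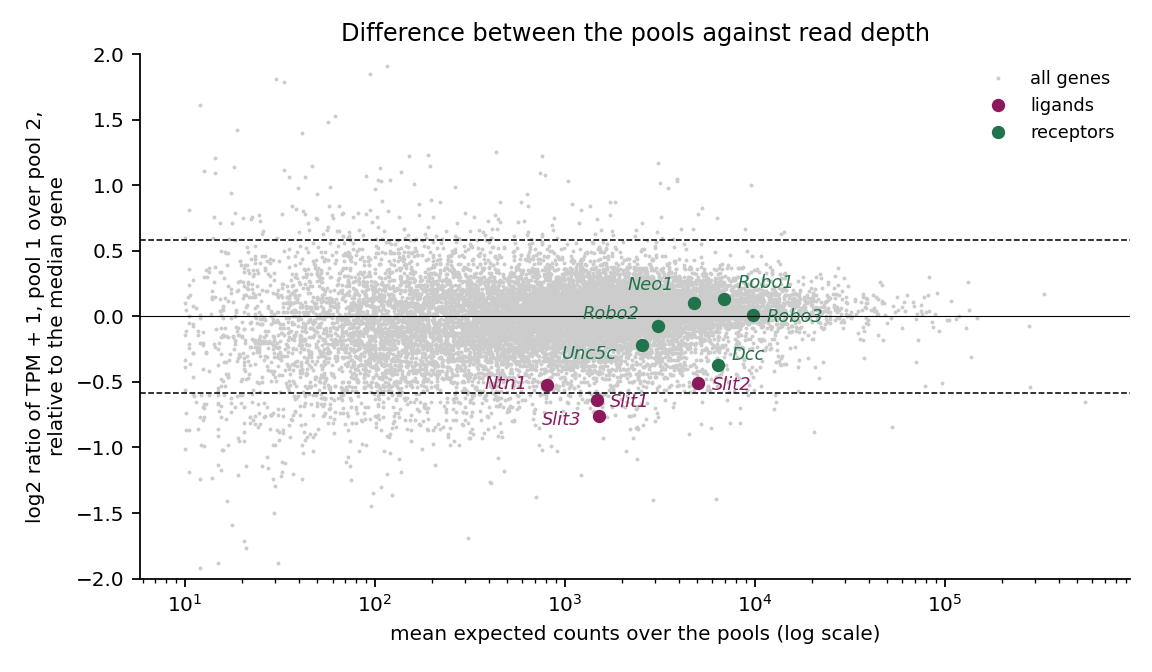
Log2 ratio of TPM + 1, pool 1 over pool 2, relative to the median gene, against mean expected counts on a log axis, for 14636 genes with at least 10 counts; 4 lie beyond the y axis, which ends at 2 in each direction. The dashed lines mark 1.5-fold; Slit1 (-0.64) and Slit3 (-0.76) lie below the lower one, and the 6 receptors lie between -0.37 and 0.13.

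Floor plate markers, from the midline cells known to secrete Slits and netrin-1, are given beside the ligands. Of 6 markers 5 stood higher in pool 2 than the median gene did, and the TPM of all 6 summed to 50.2 and 65.2. Spon1, a secreted floor plate protein, was at 36.79 and 51.40 TPM, Foxa2, a floor plate transcription factor, at 2.56 and 3.09 TPM, and Shh, the floor plate morphogen, at 1.27 and 1.93 TPM. The sum is largely Spon1, and Corin differed the other way, at 7.70 and 6.03 TPM. On the centred TPM + 1 scale none of the 6 was over 1.5-fold apart. On TMM-scaled counts 3 were, against 9.31% of all genes: Shh (-0.72), Foxa1 (-0.66) and Spon1 (-0.59). The part of these markers in the ligand difference was not tested.

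The most abundant other ligands of these receptors stood above Ntn1. Of 13 genes listed as ligands or netrin relatives, 12 were found and 11 reached 1 TPM in each pool. Nell2, a ligand of Robo3, led at 75.04 and 64.95 TPM, below Robo3 in both pools. Rgmb, a ligand of neogenin, had 70.30 and 57.63 TPM, and Flrt3, a partner of Robo1, 32.69 and 25.78 TPM. Ntn5 was lowest, at 0.16 and 0.15 TPM. Of the 12, 2 were over 1.5-fold apart, against 5.98% of all genes, Ntn4 (1.71 and 2.86 TPM) and Ntng1 (2.66 and 4.40 TPM), both named after their values were seen.

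Other receptors were at lower levels than the chosen 6. Of 6 listed, 3 reached 1 TPM in each pool. Robo4, the Robo of endothelium, had 3.61 and 2.03 TPM, Unc5a 2.00 and 2.04 TPM, and Unc5b 1.70 and 1.57 TPM, all below Unc5c. On TMM-scaled counts Robo4 was over 1.5-fold apart (0.70), against 9.31% of all genes. Dscaml1 was lowest, at 0.27 and 0.24 TPM.

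The cytoplasmic partners of Robo and Dcc were present throughout, with 21 of 21 reaching 1 TPM in each pool. The small GTPases led, with Cdc42 at 560.47 and 476.36 TPM, Rac1 at 289.08 and 246.37 TPM and Rhoa at 202.46 and 201.11 TPM, and Abl2 was lowest at 3.95 and 5.50 TPM. The Slit-Robo GTPase activating proteins were the 3 of 21 over 1.5-fold apart on the TPM + 1 scale, against 5.98% of all genes. Srgap3 was at 36.74 and 60.25 TPM, Srgap1 at 11.64 and 17.87 TPM, and Srgap2 at 10.92 and 16.13 TPM. On TMM-scaled counts their ratios were -0.33, -0.43 and -0.11, so none of the 3 was past that fold there; of this list Abl2 was (-0.62), against 9.31% of all genes.

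Genes that adjust receptor levels were also expressed. Of 10 genes for cleavage, ubiquitin ligation and transport, 9 reached 1 TPM in each pool. Nedd4, a ubiquitin ligase, was at 587.28 and 487.68 TPM, and its adaptors Ndfip1 and Ndfip2, known in mouse to lower Robo1 before crossing, were at 340.97 and 315.42 TPM and at 62.55 and 59.35 TPM. Prrg4 was lowest, at 0.29 and 0.90 TPM. None of these 9 was over 1.5-fold apart on the centred TPM + 1 scale or on TMM-scaled counts, and Prrg4, below 1 TPM, had a ratio of -1.68 on the counts.

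All 6 listed genes for heparan sulfate, which binds Slit at the cell surface, and matrix reached 1 TPM in each pool. Dystroglycan (Dag1) had 38.91 and 34.78 TPM, the glypican Gpc1 27.08 and 21.50 TPM, and Ext1, which polymerises heparan sulfate, 15.86 and 16.72 TPM. Hs6st1, the lowest by mean TPM, had 11.21 and 7.33 TPM, although in pool 1 Ndst1 was lower (9.90 and 9.20 TPM). All 7 commissural neuron genes were likewise present in both pools. Cntn2, an axonal adhesion protein, had 34.43 and 44.13 TPM, Nrcam 28.11 and 21.44 TPM, Lhx9 23.94 and 21.10 TPM, and Barhl2, the lowest, 2.50 and 1.41 TPM. On the centred TPM + 1 scale none of the genes on these lists was over 1.5-fold apart. On TMM-scaled counts Barhl2 was (0.70), against 9.31% of all genes, and Hs6st1 was not (0.49).

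Genes that overlap the 10 on the genome could take or give reads, since the strand setting of the counting is not stated. GENCODE vM21 has 25 such genes, of which 13 were in the tables and 7 held reads. The largest was Gm15688, antisense to Unc5c, with 82.0 and 55.0 reads against 2524 and 2596 for Unc5c. An antisense gene of Slit2, 4930518C09Rik, had 5.00 and 23.0 reads. The other 5 held 1.00 to 14.0 reads.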

How the data were processed

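Total RNA of hindbrain was measured in 2 libraries of 1 group. The authors deposited, per the file headers, expected counts (estimated counts that need not be whole), TPM, FPKM, an interval around TPM, and isoform percent, the percent of a gene's TPM on each transcript. Per the labels the assembly was mm10, and the readme beside the tables gives GENCODE M4. Not given in the sources used here are the aligner, the quantifier, the strand setting and the interval level. Depth was 45340440 and 41261544 expected counts.

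Symbols, transcript classes, structures and coordinates (1-based) came from GENCODE vM21 (GRCm38, the same build). Of 59 transcripts of the 10 genes 58 matched, and 35 of these had the deposited length, so structures of the rest may differ from those counted. "Protein-coding" includes incomplete fragments.

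The members and lists were chosen with earlier results of these data known. Ratios were log2 of TPM + 1, pool 1 over pool 2, centred on the median gene with a mean TPM of at least 1. With 1 library a pool no test was possible. Genes were named by a rule: all 10 members, transcripts with a mean isoform percent of at least 10 and the highest of each class, and of each list the 3 highest, the lowest and any over 1.5-fold apart at a mean TPM of at least 5. Further names were added after their values were seen. Alternatives were FPKM, rescaled TPM, expected counts rounded to whole numbers and scaled with edgeR 4.0.16 (TMM) or DESeq2 1.42.0 in R 4.3.3, other filters, a pseudocount of 0.1, each pool alone, and, chosen after seeing the data, protein-coding transcripts only. The ratio step was tested on simulated data. Other steps ran in Python 3.11.15 (pandas 2.3.3, NumPy 2.4.6, Matplotlib 3.10.9, SciPy 1.17.1).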

Additional observations from a re-analysis of the deposited data

How the results depend on the processing

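No paired analysis was possible because the series has 1 group. The Robo3 share of the 10 genes' TPM was 28.6% ± 3.16, and 23.3% over protein-coding transcripts, an alternative chosen after seeing the data. Of the 10 genes 2 were over 1.5-fold apart, against 1 with TMM-scaled counts, 1 with DESeq2-scaled counts, 1 without centring, 1 without a filter on low values and 1 over protein-coding transcripts. Over all genes the count was 893, against 1456 with a pseudocount of 0.1, 1391 with TMM, 1391 with DESeq2, 421 with at least 100 expected counts and 411 over protein-coding transcripts. The median share of the leading coding transcript was 62.8% ± 3.08, against 77.3% by expected counts and 83.8% among protein-coding transcripts only. With each pool alone, the Robo3 share was 26.4% to 30.9%, the ratio of Robo to Slit 1.52 to 2.38, the ratio of netrin receptors to Ntn1 10.4 to 13.4, and the leading share 60.7% to 65.0%; a ratio between pools cannot be had from 1 pool. Among values of single genes, 119 kept their size or their side of 1.5-fold. The shares of the 10 genes' TPM among these could not have moved, so they are no check. FPKM and rescaled TPM keep shares within a library unchanged, and with 2 pools each pool lies within 1 SD of their mean. Over protein-coding transcripts 9 shares moved. In all, 6 ratios crossed 1.5-fold. They were Slit1 at -0.56 (TMM, DESeq2) and at -0.53 (without centring, without a filter), Slit3 at -0.49 (protein-coding transcripts) and Ntn1 at -0.59 (pseudocount of 0.1). The cause of these shifts was not tested. Ntn1 had the fewest reads of the 10, at 699 and 919.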
